A study of Homo sapiens with 36 samples.

Results

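The change in expression between 6 h and 24 h was examined in K562 cells kept in 5% oxygen. K562 is an established cell line from a human erythroleukemia and expresses embryonic and fetal globin genes. The tested step set the 3 libraries of 24 h in 5% oxygen against the 3 libraries of 6 h in 5% oxygen, and the same step in 21% oxygen, again 3 libraries against 3, was set beside it. Genes were kept if their mean was at least 1 FPKM (fragments per kilobase of transcript, scaled to the mapped fragments of the library) over the 6 libraries of 5% oxygen, which held for 10348 of 21950 genes. The series holds 36 libraries, 3 for each combination of 21%, 5% or 1% oxygen with 6 h, 24 h, 3 d or 6 d. No group carried a genetic change or drug by the labels: untreated cells were seeded at one density in DMEM and differed in incubator oxygen and time. Both times lie before the passage at 3 d, and every well of a step had also been in culture for longer at 24 h than at 6 h. The labels do not say whether the 3 replicates were separate cultures, so p-values measure only the spread between these samples, which may be technical.

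Cells sense oxygen through prolyl hydroxylases of the EGLN family, which use it to mark the alpha subunits of hypoxia-inducible factor (HIF) for destruction through VHL. When oxygen is short the alpha subunit persists, pairs with ARNT and binds DNA at sites with the core ACGTG or GCGTG. Known targets in many cell types include genes for glycolysis, for mitophagy, for collagen hydroxylation and for the EGLN enzymes themselves. Erythroid cells in addition take up large amounts of iron through the transferrin receptor for heme synthesis.

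The libraries carried the markers of the line: all 10 K562 markers were above 1 FPKM on average. Of 12 myeloid and lymphoid markers 3 passed that level (PTPRC, CD3D and LYZ), as did 3 of 9 epithelial and stromal markers (EPCAM, KRT19 and COL1A2). The summed level of the epithelial and stromal list was 238 to 251 FPKM at 24 h and 271 to 305 FPKM at 6 h in 5% oxygen, and its part in the results was not tested. The files hold no counts, so the absolute depth and the counting error are unknown. Relative depth, read from the smallest steps between the values of weakly expressed genes, was 1.42 to 1.53 in the 24 h libraries of 5% oxygen and 0.468 to 1.07 in the 6 h libraries, with replicate 1 of 6 h set to 1. In 21% oxygen it was 0.423 to 1.22 at 24 h and 1.12 to 1.41 at 6 h. Replicate 3 of 24 h in 21% oxygen stood apart, with the lowest depth of the 12 and a sum of FPKM of 1171410, against 632398 to 900700 in the other 11. Replicate 2 of 6 h in 5% oxygen, a library of the tested step, was nearly as shallow, at 0.468 against 0.423. Olfactory receptor genes were above 0 in 20.8%, 37.1% and 67.5% of 375 genes in replicates 1, 2 and 3 of 24 h in 5% oxygen. In the other 9 libraries the share was 12.8% to 21.3%. Pearson correlations between libraries of the same group over the tested genes lay between 0.973 and 0.989. The part of these differences in the results was not tested, and values without single libraries stand beside the results they moved.

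**Figure D1:**
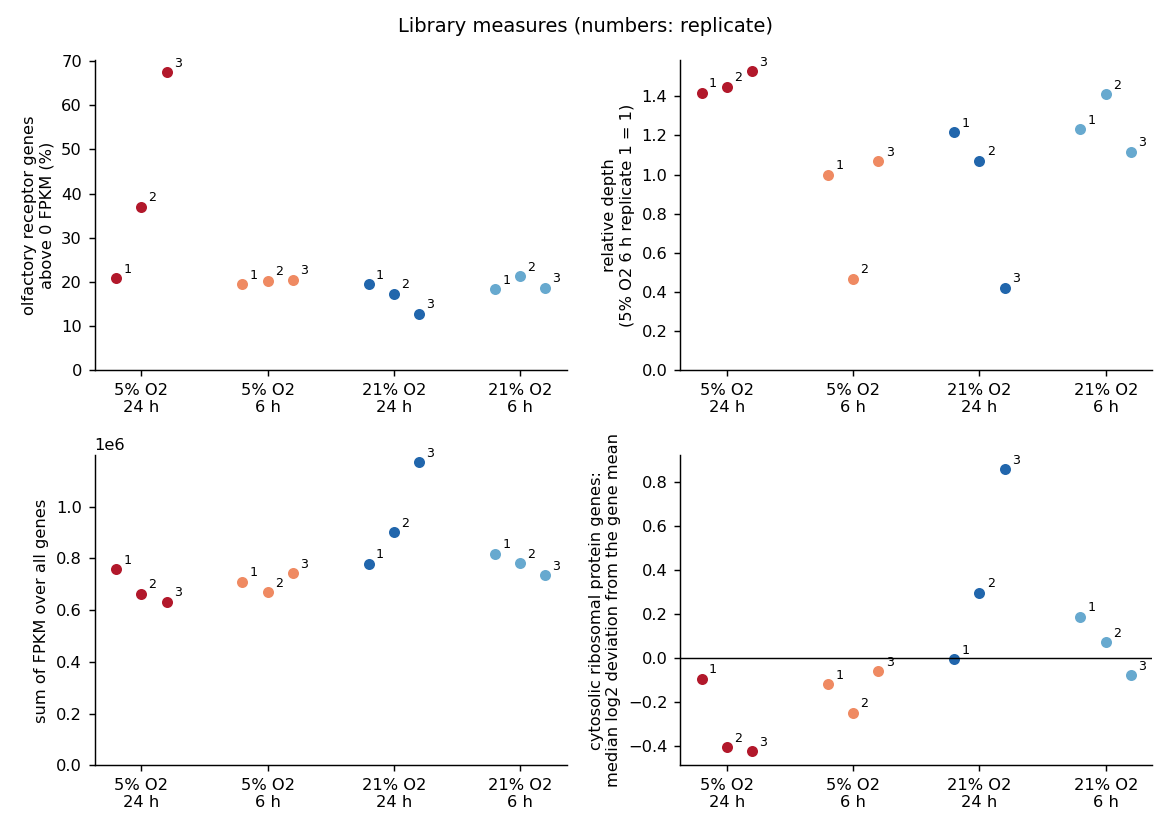
Share of olfactory receptor genes above 0 FPKM in percent, relative depth (5% oxygen, 6 h, replicate 1 set to 1), sum of FPKM, and the median log2 deviation of the cytosolic ribosomal protein genes from their mean, per library. Each point is 1 library and its number is the replicate. Replicate 3 of 24 h in 5% oxygen reached 67.5% in the first panel, and replicate 3 of 24 h in 21% oxygen had the highest sum of FPKM, 1171410.

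Few genes passed the test in 5% oxygen. DHRS3 and P4HA1 rose between 6 h and 24 h, 2 of 10348 genes (0.0193%), at an adjusted p under 0.05 in limma with Benjamini-Hochberg adjustment. None fell (0%), although 365 genes were lower (3.53%) and 263 higher (2.54%) at an unadjusted p under 0.05, 6.07% in all. The median log2 difference over all tested genes was -0.01, and the median size of the difference without its sign was 0.11 on that scale. Groups of 3 libraries did not overlap for 582 genes that were higher at 24 h (5.62%) and for 904 that were lower (8.74%). In 21% oxygen 7 genes passed (0.0676%): DHRS3 and ALAS2 rose (0.0193%) and FASN, SCD, HIST1H1B, INCENP and PTHLH fell (0.0483%). Of these 7, DHRS3 was called in 21% oxygen in each of the 12 fits without 1 library, ALAS2 in 5, FASN and HIST1H1B in 2 each, SCD and INCENP in 1 each and PTHLH in 0 (adjusted p = 0.0504 to 0.200). Rescaled to TPM the split of higher to lower calls was 2 to 1 in 5% oxygen and 1 to 12 in 21% oxygen, and quantile normalization gave 5 to 3 and 3 to 18. The difference between the steps passed for none of the genes, against 961 (9.29%) at an unadjusted p under 0.05. When 35 libraries of all groups shared the estimate of spread, with replicate 3 of 1% oxygen at 3 d left out because it was very shallow, 17 genes rose (0.164%) and 25 fell (0.242%) in 5% oxygen, the first 2 among them. The split in 21% oxygen leaned the other way in that fit, with 193 higher (1.87%) and 65 lower (0.628%), and 6 of the 7 genes named above for 21% oxygen were among them. In that fit the steps differed for 2 genes, TFRC upward and RBM3 downward (0.00966% each).

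DHRS3, a short-chain dehydrogenase that reduces retinaldehyde to retinol, had the smallest adjusted p in 5% oxygen. Its level was 68.9, 59.8 and 53.5 FPKM at 24 h, against 21.6, 28.2 and 21.1 FPKM at 6 h in 5% oxygen. All 3 later libraries lay well above all earlier ones. The log2 difference was 1.33 (SE 0.128, adjusted p = 0.00214 in limma). The same step was seen in 21% oxygen, where DHRS3 was at 47.5, 50.0 and 59.2 FPKM at 24 h and at 19.9, 20.4 and 20.6 FPKM at 6 h. Its log2 difference there was 1.31 (adjusted p = 0.00239), and the 2 steps differed by 0.01 with a 95% interval of -0.38 to 0.41. DHRS3 was called in 5% oxygen under each alternative run, including each of the 12 fits without 1 library, where its adjusted p was 0.000847 to 0.0269. Over the whole course in 5% oxygen it averaged 23.7, 60.7, 97.8 and 60.7 FPKM at 6 h, 24 h, 3 d and 6 d.

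P4HA1 encodes a catalytic alpha subunit of the prolyl 4-hydroxylase that matures collagen, and is a known HIF target. It was at 47.7, 49.6 and 43.8 FPKM at 24 h, against 28.4, 26.7 and 30.1 FPKM at 6 h in 5% oxygen. In 21% oxygen it was at 26.5, 23.0 and 24.9 FPKM at 24 h, against 24.6, 24.0 and 21.5 FPKM at 6 h. The 24 h libraries of 5% oxygen were the highest 3 of the 12 and the 6 h libraries of 5% oxygen the next 3, all above the 6 libraries of 21% oxygen, whose 2 groups overlapped. The log2 difference was 0.71 in 5% oxygen (SE 0.0912, adjusted p = 0.0241) and 0.08 in 21% oxygen (adjusted p = 0.652). The difference between the steps was 0.63 with a 95% interval of 0.34 to 0.91, which did not pass over all genes (adjusted p = 0.503). The call in 5% oxygen rested on all 6 libraries: without any 1 of them the adjusted p was 0.0581 to 0.235, and after rescaling to TPM it was 0.215, while the log2 difference stayed at 0.67 to 0.76 over the 6 fits.

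**Figure D2:**
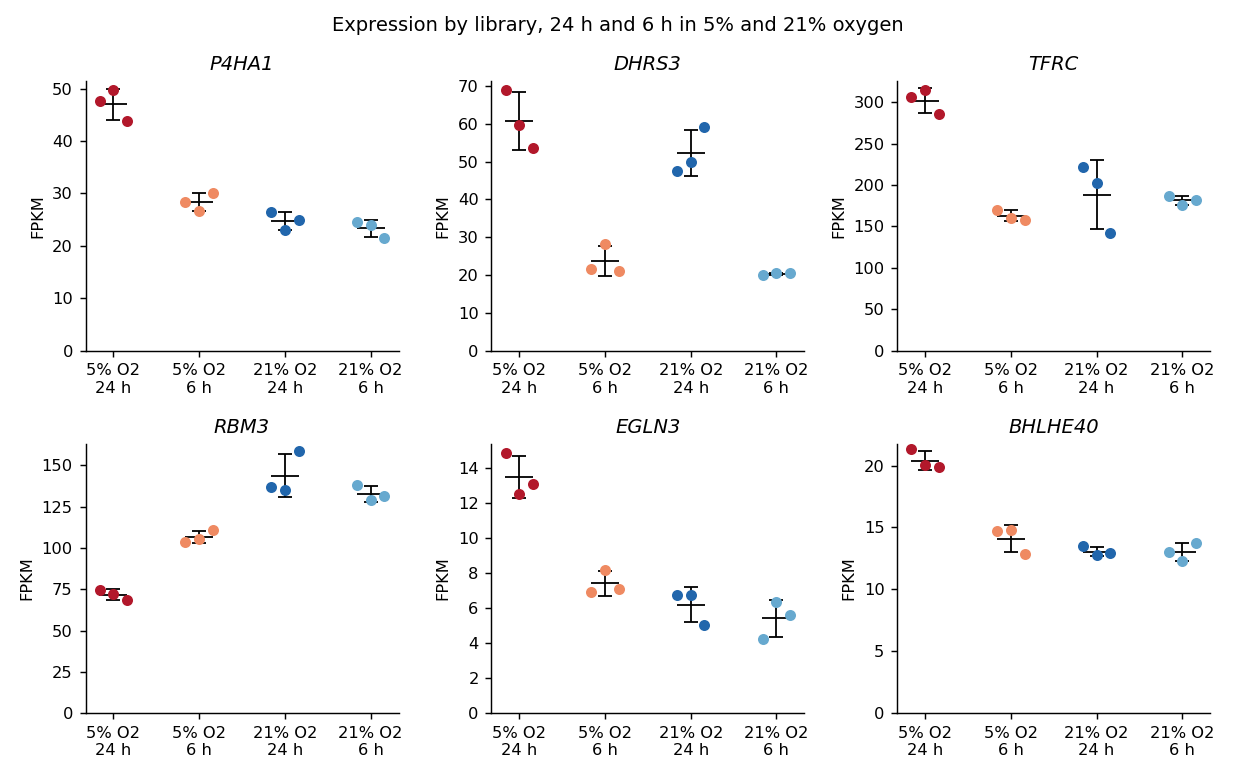
FPKM of 6 genes in the 4 groups, with 24 h left of 6 h and 5% oxygen left of 21%. Points are libraries (3 per group), horizontal bars are means and vertical bars are SD. P4HA1, TFRC, EGLN3 and BHLHE40 were highest and RBM3 lowest in the 24 h libraries of 5% oxygen, and DHRS3 was higher at 24 h in both oxygen levels.

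To show what sequence lies at the start of some of the genes the results turn on, with and without a match to ACGTG, the promoters of P4HA1, TFRC, BHLHE40 and DHRS3 are given from RefSeq (GRCh38.p14), from 250 bases before to 50 bases after the start, on the strand of the gene. Capitals mark each match to ACGTG on either strand (CACGT when read on the other strand), and matches to GCGTG are not marked. They lie at chr10:73096817-73097116 (minus strand) for P4HA1, chr3:196082041-196082340 (minus) for TFRC, chr3:4979187-4979486 (plus) for BHLHE40 and chr1:12618161-12618460 (minus) for DHRS3, for which the outermost of 3 listed starts is shown.
P4HA1: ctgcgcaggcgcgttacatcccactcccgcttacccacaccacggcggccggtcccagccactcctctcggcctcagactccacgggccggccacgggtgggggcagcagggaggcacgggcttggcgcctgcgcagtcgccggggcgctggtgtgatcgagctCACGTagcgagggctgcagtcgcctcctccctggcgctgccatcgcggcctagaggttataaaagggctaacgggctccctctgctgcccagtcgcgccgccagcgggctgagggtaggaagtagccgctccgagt
TFRC: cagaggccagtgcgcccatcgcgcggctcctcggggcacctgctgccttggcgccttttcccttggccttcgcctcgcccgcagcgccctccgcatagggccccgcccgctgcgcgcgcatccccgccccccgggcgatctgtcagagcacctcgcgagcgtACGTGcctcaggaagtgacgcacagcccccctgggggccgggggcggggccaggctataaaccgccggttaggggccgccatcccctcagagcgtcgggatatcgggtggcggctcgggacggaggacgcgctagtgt
BHLHE40: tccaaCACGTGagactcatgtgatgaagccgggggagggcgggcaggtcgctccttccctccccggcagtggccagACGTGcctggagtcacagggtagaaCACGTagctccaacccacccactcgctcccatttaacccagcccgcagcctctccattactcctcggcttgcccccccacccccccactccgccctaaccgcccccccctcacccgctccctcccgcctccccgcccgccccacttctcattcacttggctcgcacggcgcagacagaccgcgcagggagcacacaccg
DHRS3: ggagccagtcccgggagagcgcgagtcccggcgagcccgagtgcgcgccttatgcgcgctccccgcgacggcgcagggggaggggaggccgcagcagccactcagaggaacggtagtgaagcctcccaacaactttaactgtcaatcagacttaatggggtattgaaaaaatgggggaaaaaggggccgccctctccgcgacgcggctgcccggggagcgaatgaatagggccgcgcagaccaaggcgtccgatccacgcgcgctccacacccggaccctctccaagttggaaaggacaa
P4HA1 has 1 match, read on the other strand at positions -86 to -82 from the start, and TFRC has 1, at -88 to -84. BHLHE40 has 4, of which a pair overlaps in a CACGTG, the palindrome also known as an E-box. The DHRS3 window has 0 matches to ACGTG and 1 to GCGTG. Over all 35116 promoters of the table, 21.4% hold ACGTG and 36.5% hold GCGTG. Of 22 tested genes on the list of hypoxia-induced genes 16 were matched by symbol, with 27 promoters between them, and 13 of these promoters (48.1%) hold ACGTG and 14 (51.9%) hold GCGTG. Of the members higher without overlap 9 were matched, with 11 promoters, of which 6 (54.5%) hold ACGTG and 3 (27.3%) hold GCGTG, the second share below that of all promoters. The windows of EGLN3 and P4HA2 hold 0 matches to either, and those of KDM3A hold GCGTG alone. A match is a stretch of letters and no evidence that a factor binds there.

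Of 41 gene lists, that of hypoxia-induced genes was the one in which the 24 h libraries of 5% oxygen most often lay above those of 6 h. Of 33 genes on this list 22 were tested, and 1 of them, P4HA1, passed. Libraries did not overlap for 10 of the 22, all higher at 24 h, against 5.62% of all genes. None was lower without overlap, against 8.74% of all genes. In 21% oxygen 2 of the 22 (VEGFA and JMJD6) were higher and 1 (CITED2) lower without overlap, against 13.4% and 6.58% of all genes. The median log2 difference of the 22 was 0.15 in 5% oxygen and 0.13 in 21% oxygen, against -0.01 and 0.04 over all genes. The median in 21% oxygen was -0.11 after rescaling to TPM, which moved the median of all genes in that step to -0.20. Without any 1 of the 6 libraries of 5% oxygen the number higher without overlap was 10 to 12, against 7.67% to 12.8% of all genes. Leaving out a library cannot lower this count, so its low end was fixed in advance. It was 11 when the 24 h library with most olfactory receptor genes above 0 was left out (background 12.8%). The number lower without overlap was 2 without replicate 1 of 24 h and 3 without replicate 2 of 6 h, against 17.9% and 15.3% of all genes in those sets, and 0 in the other 4 sets. The list median was 0.25 without replicate 1 of 6 h. The list and these counts were chosen with earlier results known, so they describe the list and are no test of it.

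Of the 3 EGLN enzymes, the oxygen sensors, EGLN3 and EGLN1 are on the list as known HIF targets. EGLN3 was at 14.9, 12.5 and 13.1 FPKM at 24 h, against 6.93, 8.21 and 7.11 FPKM at 6 h in 5% oxygen. It was at 6.77, 6.77 and 5.04 FPKM at 24 h, against 4.26, 6.34 and 5.64 FPKM at 6 h in 21% oxygen. The 24 h libraries of 5% oxygen were the highest 3 of the 12, and the 21% groups overlapped. The log2 difference of 0.78 (SE 0.147) did not pass with 12 libraries (adjusted p = 0.172) and passed with 35 (adjusted p = 0.000353). EGLN1, the main HIF hydroxylase under ordinary oxygen, was at 3.04, 2.52 and 2.99 FPKM at 24 h and at 2.36, 2.42 and 2.45 FPKM at 6 h in 5% oxygen. Its log2 difference was 0.17 with a 95% interval of -0.09 to 0.43 (adjusted p = 0.845, and 0.589 with 35 libraries). EGLN2, which is outside the list, had a difference of -0.08 with overlapping groups (adjusted p = 0.982). The factors upstream did not separate. HIF1A averaged 12.2 ± 1.14 FPKM at 24 h and 12.1 ± 2.18 FPKM at 6 h (SD, n = 3 each), with a log2 difference of 0.02. EPAS1, which encodes another HIF alpha subunit, had a difference of -0.30 (adjusted p = 0.818), and ARNT and VHL had differences of -0.13 and 0.14, all with overlapping groups.

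The transcriptional repressor BHLHE40, a known HIF target, was at 21.3, 20.0 and 19.9 FPKM at 24 h, against 14.7, 14.8 and 12.9 FPKM at 6 h in 5% oxygen. It stayed at 12.3 to 13.7 FPKM in all 6 libraries of 21% oxygen. Its log2 difference was 0.50 (SE 0.0887, adjusted p = 0.125, and 0.0127 with 35 libraries), against 0.00 in 21% oxygen. The mitophagy receptor BNIP3L was at 34.3, 28.4 and 31.6 FPKM at 24 h, against 23.6, 21.2 and 21.3 FPKM at 6 h in 5% oxygen. Its relative BNIP3 was at 90.0, 87.0 and 84.5 FPKM at 24 h, against 66.6, 59.1 and 65.2 FPKM at 6 h. For both the later libraries were all higher, with log2 differences of 0.49 and 0.45, and neither passed with 12 libraries (adjusted p = 0.172 and 0.230), while both passed with 35. In 21% oxygen BNIP3L had a difference of 0.07 and BNIP3 of 0.18, with overlapping groups.

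For 4 further genes all later libraries were also higher. PDK1, the kinase that holds back pyruvate dehydrogenase, was at 6.89, 6.96 and 6.87 FPKM at 24 h, against 4.10, 4.82 and 3.55 FPKM at 6 h in 5% oxygen. P4HA2, the other widely expressed collagen prolyl hydroxylase subunit of the list, was at 8.14, 8.24 and 7.30 FPKM at 24 h, against 5.21, 5.79 and 5.05 FPKM at 6 h. KDM3A, a histone H3 lysine demethylase that needs oxygen, was at 8.54, 9.14 and 9.24 FPKM at 24 h, against 5.57, 6.34 and 7.30 FPKM at 6 h. ANKRD37 had the largest log2 difference on the list, 0.86, at a low level: 4.87, 4.00 and 2.49 FPKM at 24 h, against 1.97, 2.03 and 0.923 FPKM at 6 h. None of these 4 passed with 12 libraries (adjusted p = 0.427 to 0.743) or with 35. Other familiar hypoxia genes did not separate. VEGFA, the vascular growth factor, was at 3.52, 3.32 and 2.88 FPKM at 24 h and at 3.09, 4.16 and 2.13 FPKM at 6 h. DDIT4, an inhibitor of mTORC1, averaged 278 ± 16.7 FPKM at 24 h and 252 ± 14.2 FPKM at 6 h (SD, n = 3 each). The mitochondrial protein FAM162A had a log2 difference of -0.23 and CITED2, which competes with HIF for its coactivator, one of -0.24. CA9, a membrane carbonic anhydrase much used as a marker of hypoxia, was listed at 0 in all libraries of the 4 groups but replicate 2 of 24 h in 5% oxygen, at 0.176 FPKM, and did not enter the test.

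**Figure D3:**
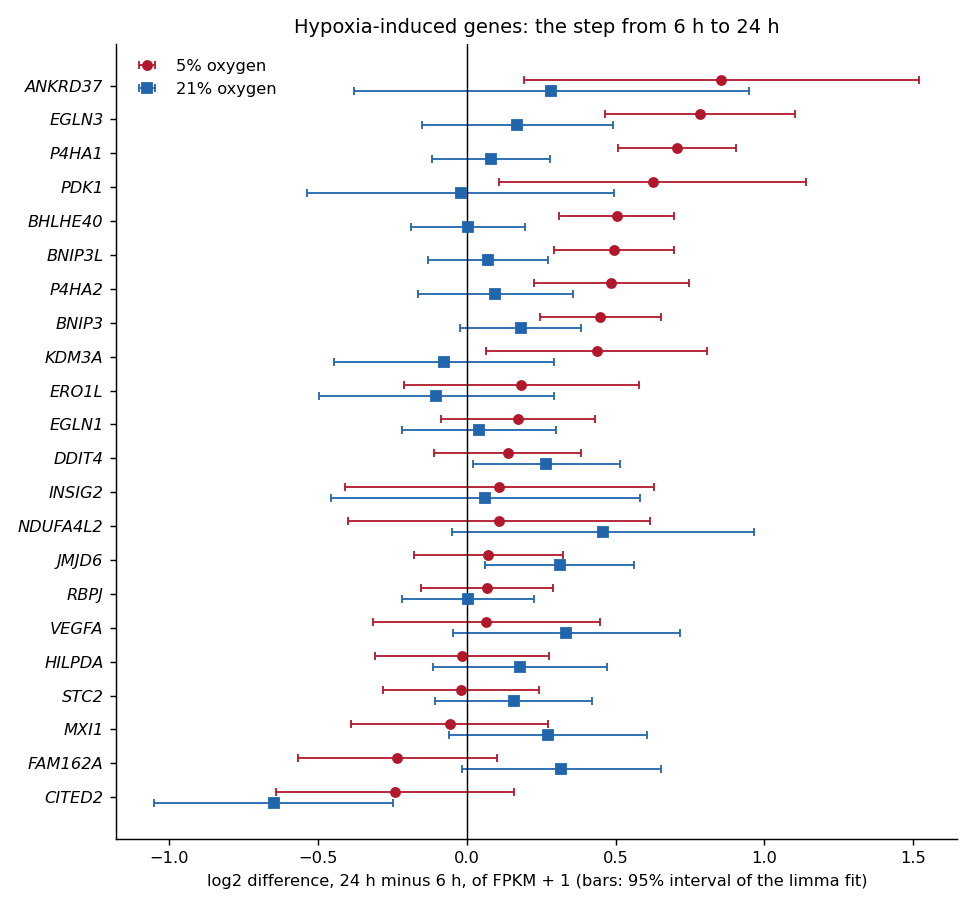
Log2 difference between 24 h and 6 h (log2 of FPKM + 1, horizontal axis) for the 22 tested hypoxia-induced genes, in 5% oxygen (circles) and 21% oxygen (squares). Bars are 95% intervals of the limma fit with 12 libraries, not adjusted over genes. ANKRD37, EGLN3, P4HA1 and PDK1 lay furthest right in 5% oxygen, and VEGFA, FAM162A and CITED2 had intervals over 0 in that step.

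The early level in 5% oxygen was small beside the levels at later times. P4HA1 averaged 28.4, 47.0, 241 and 176 FPKM at 6 h, 24 h, 3 d and 6 d in 5% oxygen, and 23.4, 24.8, 33.4 and 34.0 FPKM in 21% oxygen. EGLN3 averaged 7.41, 13.5, 82.9 and 56.6 FPKM in 5% oxygen, and BHLHE40 14.1, 20.4, 189 and 146 FPKM. CA9 was at 21.3 ± 1.09 FPKM by 3 d (SD, n = 3). At 24 h in 1% oxygen the levels were 85.8 ± 4.27 FPKM for P4HA1, 35.8 ± 1.05 FPKM for EGLN3 and 45.4 ± 1.30 FPKM for BHLHE40, all above the 24 h libraries of 5% oxygen. The steps after 24 h and the other oxygen levels were not tested here.

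**Figure D4:**
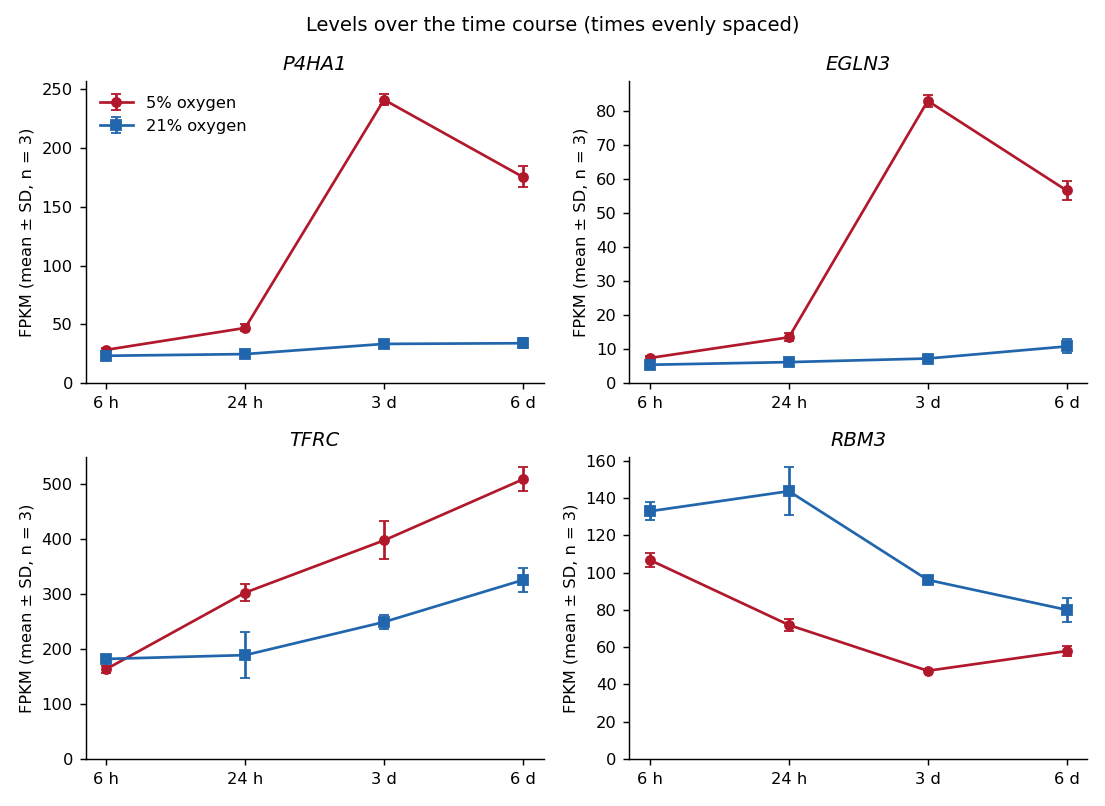
Mean FPKM (vertical axis, bars are SD, n = 3 libraries) of P4HA1, EGLN3, TFRC and RBM3 at 6 h, 24 h, 3 d and 6 d, evenly spaced on the horizontal axis, in 5% oxygen (circles) and 21% oxygen (squares). In 5% oxygen P4HA1 averaged 47.0 FPKM at 24 h and 241 FPKM at 3 d, while TFRC was already at 302 FPKM at 24 h.

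In glycolysis no member of 22 tested passed, and 4 were higher without overlap in 5% oxygen (LDHA, PFKFB4, SLC2A3 and HK2) and none lower, against 5.62% and 8.74% of all genes. In 21% oxygen 6 were higher and 2 lower, against 13.4% and 6.58%. LDHA, which makes lactate from pyruvate, was at 1363, 1367 and 1268 FPKM at 24 h, against 1029, 948 and 1114 FPKM at 6 h in 5% oxygen. Its log2 difference was 0.37 (SE 0.106, adjusted p = 0.597, and 0.00656 with 35 libraries), against 0.20 in 21% oxygen. PFKFB4, which makes an activator of phosphofructokinase, had a difference of 0.35 and was at 8.07, 9.60 and 8.53 FPKM at 24 h, against 5.62, 7.59 and 6.77 FPKM at 6 h. The glucose transporter SLC2A3 had a difference of 0.22 and hexokinase HK2 one of 0.28, and neither was higher without overlap in 21% oxygen. ENO2 had the largest difference of the list in 5% oxygen, 0.47, with overlapping groups (adjusted p = 0.659 in limma). In 21% oxygen its difference was -0.13. SLC2A1, the main glucose transporter of red cells, averaged 51.0 ± 3.27 FPKM at 24 h and 48.2 ± 2.90 FPKM at 6 h (SD, n = 3 each), and PGK1 408 ± 22.7 and 377 ± 10.3 FPKM. The median of the list was 0.06 in 5% oxygen, 0.03 without replicate 1 of 6 h, and 0.13 in 21% oxygen, where it was -0.03 after quantile normalization and -0.14 after TPM rescaling.

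The transferrin receptor gene TFRC, through which erythroid cells take in iron, was at 306, 314 and 285 FPKM at 24 h, against 170.3, 161 and 158 FPKM at 6 h in 5% oxygen. Its level in 21% oxygen was 221, 202 and 142 FPKM at 24 h, against 187, 176 and 182 FPKM at 6 h. The 24 h libraries of 5% oxygen were above the other 9, and replicate 3 of 24 h in 21% oxygen, the library with the lowest depth, was the lowest of the 12. The log2 difference was 0.88 (SE 0.134) in 5% oxygen and just missed the threshold (adjusted p = 0.0598). It passed without that library (adjusted p = 0.000337) and with 35 libraries (adjusted p = 8.85e-06). The step in 21% oxygen was 0.03, and the difference between the steps, 0.85 with a 95% interval of 0.44 to 1.27, had an adjusted p of 0.503 with 12 libraries and of 0.00962 with 35. The fit of 35 libraries keeps replicate 3 of 24 h in 21% oxygen. Without that replicate the difference between the steps was 0.66. Over the 12 fits without 1 library its adjusted p in limma was 0.210 to 0.749. Among the other 11 tested genes of iron handling, SLC40A1, the iron exporter, and SLC11A2, the endosomal iron transporter, were higher without overlap by 0.20 and 0.21, which with TFRC made 3 of 12, against 5.62% of all genes. FTL, the ferritin light chain that stores iron, was lower without overlap, at 5762, 5077 and 4791 FPKM at 24 h, against 5832, 5972 and 6531 FPKM at 6 h. It was the 1 gene of the 12 that was lower without overlap, against 8.74% of all genes. In 21% oxygen FTL was higher without overlap by 0.32, at 7284, 7634 and 10833 FPKM at 24 h, against 6833, 6987 and 6464 FPKM at 6 h. There 4 of the 12 were higher and none lower, against 13.4% and 6.58% of all genes. The list median was 0.03, and -0.00539 without replicate 1 of 6 h in 5% oxygen.

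RBM3, an RNA-binding protein induced by mild cold, had the smallest adjusted p among genes that were lower at 24 h in 5% oxygen. It was at 74.6, 72.5 and 68.4 FPKM at 24 h, against 104, 105 and 111 FPKM at 6 h in 5% oxygen. In 21% oxygen it was at 137, 135 and 159 FPKM at 24 h, against 138, 129 and 132 FPKM at 6 h. The 24 h libraries of 5% oxygen were the lowest 3 of the 12, and the 6 h libraries of 5% oxygen were the next 3. Levels in 1% oxygen went the other way and were not tested. There RBM3 averaged 173 ± 9.62 FPKM at 24 h and 165 ± 6.65 FPKM at 6 h (SD, n = 3 each), above 21% oxygen at each time. The log2 difference was -0.56 (SE 0.0826, adjusted p = 0.0581) in 5% oxygen and 0.11 in 21% oxygen. It passed without replicate 3 of 24 h in 21% oxygen (adjusted p = 0.00601) and with 35 libraries (adjusted p = 1.5e-05). The difference between the steps was -0.67, with an adjusted p of 0.503 with 12 libraries, 0.237 without that replicate and 0.00188 with 35 libraries. CIRBP, the other cold-inducible RNA-binding protein, was at 80.1, 72.6 and 72.0 FPKM at 24 h, against 83.7, 103 and 90.5 FPKM at 6 h, a difference of -0.30 that did not pass (adjusted p = 0.752).

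Several genes of lipid synthesis stood lower at 24 h in both oxygen levels. Of 25 tested genes of cholesterol synthesis, in which sterols are built from acetyl-CoA, none passed in either step, and 9 were lower and 1 higher without overlap in 5% oxygen, against 10 lower and 1 higher in 21% oxygen. Over all genes 8.74% were lower and 5.62% higher without overlap in 5% oxygen, and 6.58% and 13.4% in 21% oxygen. With 35 libraries 3 of the 25 fell and 1 rose in 5% oxygen, against 0.242% and 0.164% of all genes. In 21% oxygen 6 fell and none rose in that fit, against 0.628% and 1.87%. ACAT2 and LSS passed in that fit in both oxygen levels. The list median was -0.20 in 5% oxygen, -0.11 without replicate 1 of 6 h, and -0.25 in 21% oxygen. ACAT2, the first enzyme of the route, was at 159, 155 and 139 FPKM at 24 h, against 195, 202 and 201 FPKM at 6 h in 5% oxygen. Lanosterol synthase LSS had a log2 difference of -0.39 in 5% oxygen and of -0.52 in 21% oxygen, and FDPS, which makes farnesyl diphosphate, differences of -0.40 and -0.13. The 1 member higher without overlap in 5% oxygen was MSMO1, a sterol oxidase that uses oxygen, at 42.8, 41.1 and 37.4 FPKM at 24 h, against 33.4, 25.7 and 29.9 FPKM at 6 h (log2 difference 0.44, adjusted p = 0.427). Of 15 tested genes of fatty acid synthesis 6 were lower without overlap in each step, against the same 8.74% and 6.58% of all genes. The median was -0.07 in 5% oxygen, -0.03 without replicate 3 of 24 h and -0.11 without replicate 2 of 6 h, and -0.33 in 21% oxygen. ACLY, which makes cytosolic acetyl-CoA, was at 85.6, 88.0 and 80.6 FPKM at 24 h, against 110.1, 116 and 111 FPKM at 6 h in 5% oxygen, a difference of -0.40 there and of -0.41 in 21% oxygen. It passed in both with 35 libraries (adjusted p = 0.00154 and 0.00145 in limma). Fatty acid synthase FASN and the desaturase SCD fell in 21% oxygen, by 0.70 and 0.58 on the log2 scale (adjusted p = 0.0360 and 0.0402). These calls were lost after TPM rescaling (adjusted p = 0.106 and 0.116), with the 6 libraries of 21% oxygen alone (0.550 for each) and, for FASN in 10 and for SCD in 11 of the 12 fits, without 1 library. Both genes passed in 21% oxygen with 35 libraries (adjusted p = 0.0178 and 3.2e-05 in limma). In 5% oxygen their differences were -0.30 and -0.22, without overlap, and did not pass (adjusted p = 0.688 and 0.752). The difference between the steps passed for neither (adjusted p = 0.503 for each).

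No gene of the erythroid lists passed in 5% oxygen. ALAS2 starts heme synthesis in the erythroid lineage. It was at 45.0, 38.6 and 41.7 FPKM at 24 h, against 30.8, 37.9 and 34.5 FPKM at 6 h in 5% oxygen. At 21% oxygen ALAS2 was at 47.1, 45.0 and 42.6 FPKM at 24 h, against 27.6, 25.4 and 27.6 FPKM at 6 h, and rose by 0.72 on the log2 scale (adjusted p = 0.0308). After TPM rescaling this was 0.46 (adjusted p = 0.356), and the call was also lost with the 6 libraries of 21% oxygen alone (adjusted p = 0.382), under the replicate block (0.0824) and in 7 of the 12 fits without 1 library. ALAS2 passed in 21% oxygen with 35 libraries (adjusted p = 0.00125 in limma). The step in 5% oxygen was 0.28 (adjusted p = 0.705), and the 2 steps did not differ past the threshold (-0.44, adjusted p = 0.503). FECH, which puts iron into heme, had differences of 0.28 and 0.29 in 5% and 21% oxygen, without overlap in either. Of 13 tested genes of heme synthesis 3 were higher and none lower without overlap in 5% oxygen, against 5 and none in 21% oxygen. Over all genes 5.62% were higher without overlap in 5% oxygen and 13.4% in 21% oxygen. The embryonic globin HBZ was at 4515, 3865 and 3722 FPKM at 24 h, against 3533, 4197 and 4263 FPKM at 6 h in 5% oxygen, and the groups overlapped. The median of 7 globin genes was -0.17 in 5% oxygen and 0.53 in 21% oxygen, where it was 0.31 without replicate 3 of 24 h. After quantile normalization the 2 medians were -0.08 and 0.22, and after TPM rescaling -0.12 and 0.26. In 5% oxygen it was -0.27 without replicate 1 of 24 h.

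Large families of housekeeping genes had medians slightly below 0 in 5% oxygen and above 0 in 21% oxygen, where they were smaller without 1 library. The median log2 difference of 78 cytosolic ribosomal protein genes was -0.14 in 5% oxygen and 0.31 in 21% oxygen. For 38 genes of respiratory complex I it was -0.14 and 0.28, and for 38 genes of complexes II to V it was -0.11 and 0.30. None of these genes passed in either step. RPL10, a large-subunit protein, was at 1023, 876 and 844 FPKM at 24 h, against 1036, 1038 and 1120.1 FPKM at 6 h in 5% oxygen. RPL10 in 21% oxygen was at 1164, 1329 and 1811 FPKM at 24 h, against 1205, 1205 and 1099 FPKM at 6 h. Without replicate 3 of 24 h in 21% oxygen, the library that stood apart, the medians there were 0.07, 0.06 and 0.07 for the 3 groups. In 5% oxygen they were -0.25, -0.22 and -0.22 without replicate 1 of 24 h and -0.08, -0.09 and -0.05 without replicate 3 of 24 h. After quantile normalization the ribosomal median was -0.05 in 5% oxygen and -0.000681 in 21% oxygen.

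**Figure D5:**
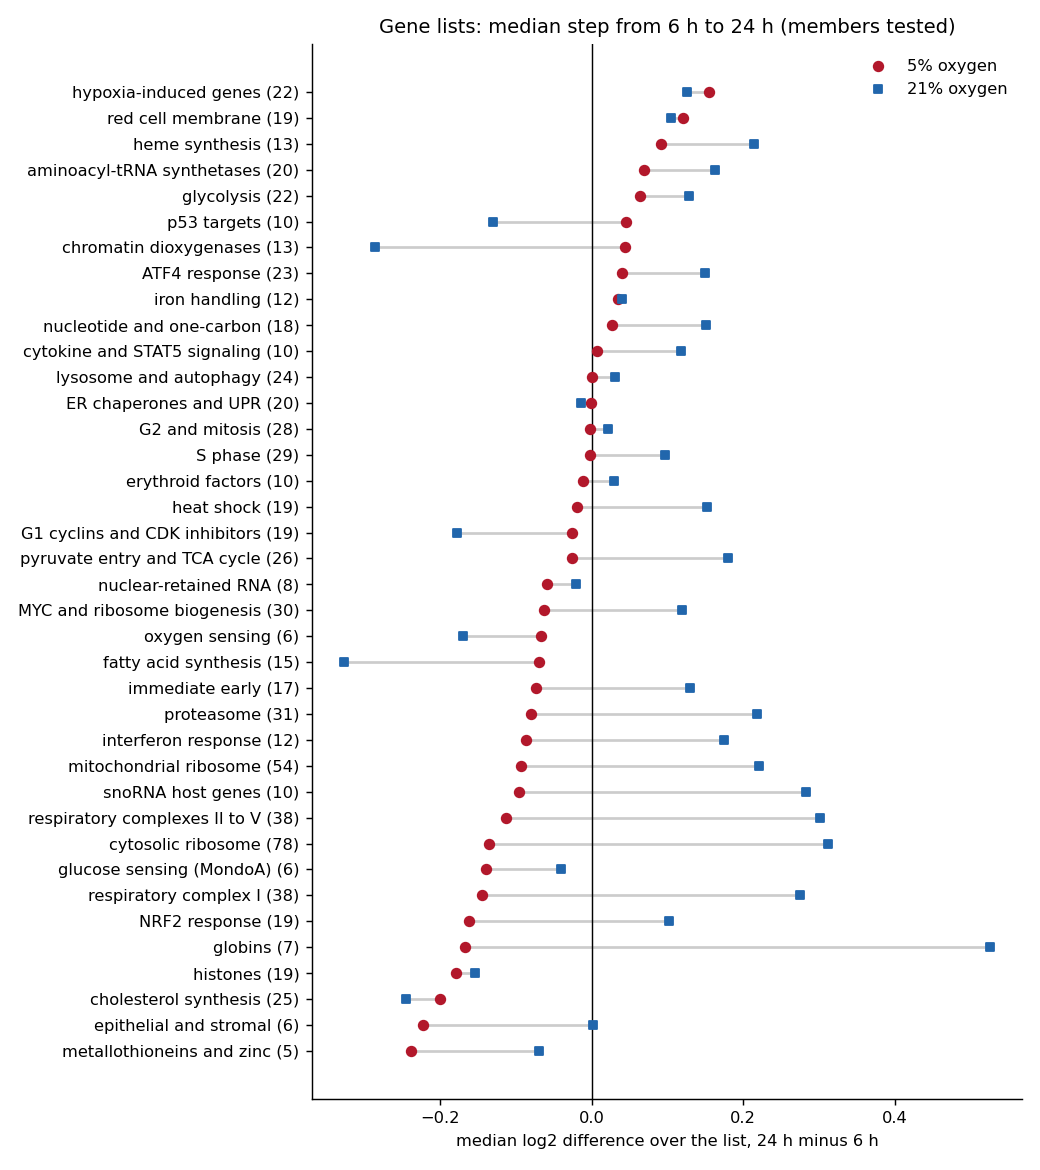
Median log2 difference between 24 h and 6 h over the tested members (number in brackets) of each gene list with at least 5, in 5% oxygen (circles) and 21% oxygen (squares). The medians over all genes were -0.01 and 0.04. Hypoxia-induced genes had the highest median in 5% oxygen, 0.15, and the cholesterol and histone lists were below 0 in both steps.

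No histone gene passed in 5% oxygen. Of 19 tested histone genes 7 were lower and none higher without overlap in 5% oxygen, against 8.74% and 5.62% of all genes, and 5 were lower and 2 higher in 21% oxygen, against 6.58% and 13.4%. The median was -0.18 in 5% oxygen, -0.30 without replicate 2 of 6 h and -0.11 without replicate 2 of 24 h. In 21% oxygen it was -0.15, -0.35 without replicate 3 of 24 h and -0.06 without replicate 1 of 24 h. HIST1H2BK, a replication-linked histone H2B gene that also gives polyadenylated RNA, was at 809, 710.1 and 702 FPKM at 24 h, against 1116, 996 and 1140.4 FPKM at 6 h in 5% oxygen (log2 difference -0.55, adjusted p = 0.316, and 0.000415 with 35 libraries). Many histone transcripts lack a polyA tail, so polyA selection records them in part. The linker histone gene HIST1H1B fell by 1.06 in 21% oxygen (adjusted p = 0.0360), a call lost in 10 of the 12 fits without 1 library and with 35 libraries (adjusted p = 0.0972), and had a difference of -0.23 in 5% oxygen. The keratin genes KRT19 and KRT8 and the intermediate filament gene VIM, all expressed in K562, had differences of -0.45, -0.37 and -0.29 in 5% oxygen, without overlap, and did not pass (adjusted p = 0.427 to 0.706). KRT19 was at 133, 122 and 119 FPKM at 24 h, against 155, 171 and 188 FPKM at 6 h. In 21% oxygen the 3 differences were -0.22, -0.02 and 0.02, with overlapping groups. Of 6 tested genes on the gene list of epithelial and stromal genes 2 had a positive difference in 5% oxygen. On that list 3 were lower and 1 higher without overlap, against 8.74% and 5.62% of all genes. In 21% oxygen none was lower and 1 higher, against 6.58% and 13.4%.

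Genes that respond to stress and growth signals gave no call in 5% oxygen. All 19 tested genes of the NRF2 antioxidant response had a negative difference in 5% oxygen, while over all genes 4777 of 10348 had a positive one. The median of the list was -0.16 against 0.10 in 21% oxygen. In 5% oxygen 7 were lower and none higher without overlap, against 8.74% and 5.62% of all genes. In 21% oxygen 1 was lower and 3 higher, against 6.58% and 13.4%. After quantile normalization the median was -0.09 in 5% oxygen and -0.06 in 21% oxygen, and after TPM rescaling -0.11 and -0.17. OSGIN1, an NRF2 target, was at 2.71, 2.25 and 1.83 FPKM at 24 h, against 3.13, 4.17 and 4.21 FPKM at 6 h, and NQO1, a quinone reductase, had a difference of -0.22. Of 17 tested immediate early genes 6 were lower and none higher without overlap in 5% oxygen, against 8.74% and 5.62% of all genes. Among the 6 was the kinase gene SGK1 at -0.47. In 21% oxygen 1 of the 17 was lower and 2 higher, against 6.58% and 13.4%. IER2 and DUSP1 varied among replicates: IER2 was at 8.77, 31.2 and 52.0 FPKM at 24 h, against 15.4, 10.6 and 10.2 FPKM at 6 h, and DUSP1 was at 1.49, 7.92 and 6.77 FPKM at 24 h, against 5.96, 3.18 and 2.56 FPKM at 6 h. The replicates with high IER2 were those in which more olfactory receptor genes were above 0, and the part of that signal was not tested. The platelet glycoprotein gene GP1BB followed the same replicates, at 2.14, 22.1 and 82.3 FPKM at 24 h, against 1.53, 2.08 and 2.64 FPKM at 6 h. The cell cycle inhibitor CDKN1A was low throughout, at 0.878, 1.52 and 1.43 FPKM at 24 h and at 2.42, 2.03 and 2.59 FPKM at 6 h. MYC averaged 107 ± 11.2 FPKM at 24 h and 112 ± 5.48 FPKM at 6 h (SD, n = 3 each). TXNIP, which responds to glucose, had a difference of -0.20 and its relative ARRDC4 one of -0.56. Asparagine synthetase ASNS, an ATF4 target, had differences of 0.20 and 0.43 in 5% and 21% oxygen, and the chaperone gene HSPA5 differences of -0.18 and -0.03.

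Several genes outside the lists were chosen after their values were seen, from the 42 that passed with 35 libraries. FAM178B was at 120.4, 97.8 and 119.7 FPKM at 24 h, against 51.7, 50.5 and 54.4 FPKM at 6 h in 5% oxygen, a log2 difference of 1.09 (adjusted p = 0.104 with 12 libraries). Its difference in 21% oxygen was 0.58, with overlapping groups. KCNN4, a calcium-activated potassium channel of red cells, was at 9.89, 7.92 and 8.27 FPKM at 24 h, against 5.31, 2.72 and 2.84 FPKM at 6 h in 5% oxygen, and its difference was 1.11 there and 0.90 in 21% oxygen. On the lower side, the cytoplasmic actin gene ACTG1 was at 406, 420.0 and 381 FPKM at 24 h, against 576, 629.8 and 629 FPKM at 6 h in 5% oxygen (difference -0.60, adjusted p = 0.110). The tubulin genes TUBA1A and TUBB3 had differences of -0.75 and -0.89 at levels of 1.47 to 7.19 FPKM in the 6 libraries of 5% oxygen. Tubulin and actin genes have near-identical relatives, between which short reads can be divided wrongly. PTHLH, which encodes a parathyroid hormone-like peptide, fell by 0.79 in 21% oxygen (adjusted p = 0.0381), a call lost in all 12 fits without 1 library. With 35 libraries the adjusted p of that step in limma was 0.00325. In 5% oxygen PTHLH had a difference of -0.62 (adjusted p = 0.178 with 12 libraries). CRIP2, a LIM domain protein, was at 0.129, 0.757 and 0.589 FPKM at 24 h, against 2.94, 2.37 and 2.48 FPKM at 6 h in 5% oxygen, and stood below 1 FPKM in the later group.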

How the data were processed

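RNA was polyA-selected and made into Smart-seq2 libraries, per the labels' protocols, and read as pairs of 25 bases. The authors deposited FPKM values computed with TopHat, Cufflinks and Cuffnorm, per the submitters' processing notes. Which versions, genome build and annotation they used is not given in the sources used here. Counts are not held, so absolute depth is unknown and differences in depth enter the spread of weakly expressed genes.

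Values were used as log2(FPKM + 1), a pseudocount that makes differences of low genes smaller. Genes with a mean of at least 1 FPKM over the 6 libraries of 5% oxygen at 24 h and 6 h were tested. A limma model (3.58.1, R 4.3.3) of 4 group means was fitted to 12 libraries, with a prior variance that follows the mean level, which left 8 residual degrees of freedom. It gave 24 h minus 6 h in 5% oxygen, the same in 21% oxygen, and the difference between these steps. Tests were two-sided, with Benjamini-Hochberg adjustment over 10348 genes and a threshold of 0.05. All SEs and intervals (95%) come from that fit. The fitting code was tested on simulated data. "Without overlap" means that all 3 libraries of one group lie beyond all 3 of the other.

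The 41 gene lists and the members described were chosen with earlier results of these data known. Genes were named if among the largest called differences, if among the 4 members of a list with the smallest adjusted p, or from a fixed set; genes outside this rule, chosen after their values were seen, include EGLN1, EGLN2, P4HA2, ANKRD37, KDM3A, FAM162A, CITED2, JMJD6, FTL, HIST1H1B, INCENP and those of the last paragraph above. Alternatives were another pseudocount, other filters, TPM rescaling, quantile normalization, array weights, other sets of libraries, a replicate block, an added fold limit and leaving out each library. The counts of hypoxia genes without overlap when 1 library is left out were added after the data were seen. Promoters come from RefSeq and were matched by symbol. Figures were drawn with matplotlib 3.10.9.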

Additional observations from a re-analysis of the deposited data

Results flagged for a closer look

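Olfactory receptor genes, which enter no comparison of the report, were above 0 FPKM in 37.1% of 375 genes in replicate 2 and in 67.5% in replicate 3 of 24 h in 5% oxygen. Both shares exceed those of all 6 h libraries of 5% oxygen and all libraries of 21% oxygen at the same times, of which the highest was 21.3%. Groups of 3 libraries were too small to look for a single sample far from the others.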

How the results depend on the processing

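The counts of called genes depended on the processing. In 5% oxygen 2 genes were called, against 4 with a mean FPKM of at least 5, 8 after quantile normalization, 6 with the 6 libraries of that oxygen alone, 12 with all 36 libraries, 42 with 35 and 37 with array weights. In 21% oxygen 7 genes were called, against 3 with no filter, 21 after quantile normalization, 13 after rescaling to TPM, 1 with the compared groups alone, 13 with 36 libraries, 258 with 35 and 220 with array weights. The difference between the steps had 0 calls, against 2 with 36 libraries, 2 with 35 and 4 with array weights. Leaving out 1 library gave 1 to 6 calls in 5% oxygen, 1 to 6 in 21% oxygen and 0 to 1 for the difference. The highest count in 5% oxygen, 6, came without replicate 3 of 24 h in 21% oxygen. The cause of these shifts was not tested.

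With the replicate number as a block, 1 gene, DHRS3, was called in 5% oxygen, and 1 in 21% oxygen. The labels do not say whether same-numbered samples are paired. The deviations of same-numbered libraries of 24 h and 6 h in 5% oxygen correlated at -0.0928, -0.0847 and -0.207. These values cannot settle it, because differences in depth between libraries enter them too. P4HA1 had an adjusted p of 0.1002 in limma under the block and was not called there. The log2 differences in 5% oxygen of 36 named genes that were followed kept their sign under every alternative run. All 36 were higher or lower without overlap, so leaving out a library could not reverse a sign. The block and the fits of other sets of whole groups left these differences unchanged. The kept signs are therefore no test of these genes. The number of hypoxia-induced genes higher without overlap was 10 to 12 over the 6 sets without 1 library, against 7.67% to 12.8% of all genes. Leaving out a library cannot lower that number. Depth is unknown, so low genes such as ANKRD37, CRIP2 and CDKN1A have an error that cannot be divided into counting and replicate parts.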
